A study of Mus musculus with 2 samples.

Results

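The genes described here are 10 components of the transforming growth factor beta (TGF-beta) system in mouse hair follicle stem cells. They were picked by name as the ligand genes Tgfb1, Tgfb2 and Tgfb3, the receptor genes Tgfbr1, Tgfbr2 and Tgfbr3, and the latent binder genes Ltbp1, Ltbp2, Ltbp3 and Ltbp4. All 10 were found, each on its own gene ID, among the 42392 gene IDs of the deposited table. The library came from stem cells of female mouse skin in anagen II-III, the early growth phase of the hair cycle. The genotype is K15-CrePGR; Shh+/-, in which a keratin 15 promoter drives a Cre fused to the progesterone receptor and 1 copy of Shh is functional. The mice had received RU486, the ligand of that fusion, for 8 days, and the sample is titled a control. Sorted cells carried CD34 and high integrin alpha 6 and lacked SCA1 and markers of non-epidermal cells. The series also has a telogen sample of the same genotype and treatment, which was not analysed here. How many animals were pooled is not stated. With 1 library there is no replicate, so no value has an error, no difference was tested, and the order of any neighbouring levels cannot be set against a spread.

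TGF-beta ligands are secreted as latent complexes, in which the active dimer is held by its own propeptide. Latent TGF-beta binding proteins attach most such complexes to the extracellular matrix, and integrins, thrombospondin or proteases free the ligand there. The free ligand binds the type II receptor, which recruits and phosphorylates the type I receptor, and SMAD proteins carry the signal to the nucleus. In the hair follicle, TGF-beta signalling is known for its part in activating stem cells at the start of anagen, with Tgfb2 made by the dermal papilla, and in the regression of the follicle in catagen.

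The bases just upstream of the start sites of the highest and the lowest ligand gene are shown because these genes set the range of the ligand levels. Capitals mark TATAAA, the TATA box, and GGGCGG, the GC box, on either strand. The motifs were chosen after the stretches had been read, and the sequences are RefSeq windows of GRCm38.p6. The stretch of Tgfb1 lies at chr7:25686752-25687001 on the plus strand and that of Tgfb2 at chr1:186705990-186706239 on the minus strand. The Tgfb1 stretch ends just before the span of its gene. That of Tgfb2 lies inside its gene span, chr1:186622787-186709697, so it precedes an internal RefSeq start.
Tgfb1: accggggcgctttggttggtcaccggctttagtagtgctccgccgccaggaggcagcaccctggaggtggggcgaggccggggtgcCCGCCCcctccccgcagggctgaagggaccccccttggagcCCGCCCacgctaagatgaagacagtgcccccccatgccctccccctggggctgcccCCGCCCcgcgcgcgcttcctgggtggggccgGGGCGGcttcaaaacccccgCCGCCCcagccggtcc
Tgfb2: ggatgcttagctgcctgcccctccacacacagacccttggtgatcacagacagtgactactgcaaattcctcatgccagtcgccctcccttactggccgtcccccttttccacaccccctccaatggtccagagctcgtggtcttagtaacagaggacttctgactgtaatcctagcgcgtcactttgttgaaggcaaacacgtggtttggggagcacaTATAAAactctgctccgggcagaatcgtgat
Each stretch holds the 250 bases before a RefSeq start, written 5′ to 3′ on the gene's strand. The Tgfb1 stretch had 5 matches to the GC box, no TATAAA, a GC content of 75.2% and 21 CpG dinucleotides. The Tgfb2 stretch had 1 TATAAA, which begins 31 bases before the start, no GC box match, a GC content of 53.6% and 8 CpG dinucleotides. Among all 32851 RefSeq windows of this length, 12.4% held TATAAA and 32.7% held GGGCGG, and the median GC content was 52.4%. RefSeq windows were matched for 8 of the 10 genes, 12 windows in all because some genes have several starts. Of these windows, 1 held TATAAA and 6 held GGGCGG, but some windows of Ltbp4 overlap. Counted by gene, 1 of the 8 held TATAAA and 4 held GGGCGG. The matches are letters in a sequence and were not tied to the levels by any test. The deposited table gives 1 value per gene, so it does not show which start was used.

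Every one of the 10 genes was expressed, most at a moderate level, and a pair of latent binders stood far above the rest. All 10 reached 1 TPM (a relative abundance per transcript length, as a share of all transcripts of the library), the level used here to call a gene expressed. The same level was reached by 56.1% of 20723 nuclear protein-coding genes and by 34.1% of all gene IDs. The median over the 10 genes was 10.4 TPM, against 2.45 TPM over all nuclear protein-coding genes and 12.5 TPM over those at 1 TPM or more. The levels of 7 genes lay between 8 and 20 TPM, with Ltbp3 and Ltbp4 above that range and Tgfb2 below it. The highest gene, Ltbp4, was 192-fold above the lowest, Tgfb2.

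**Figure D1:**
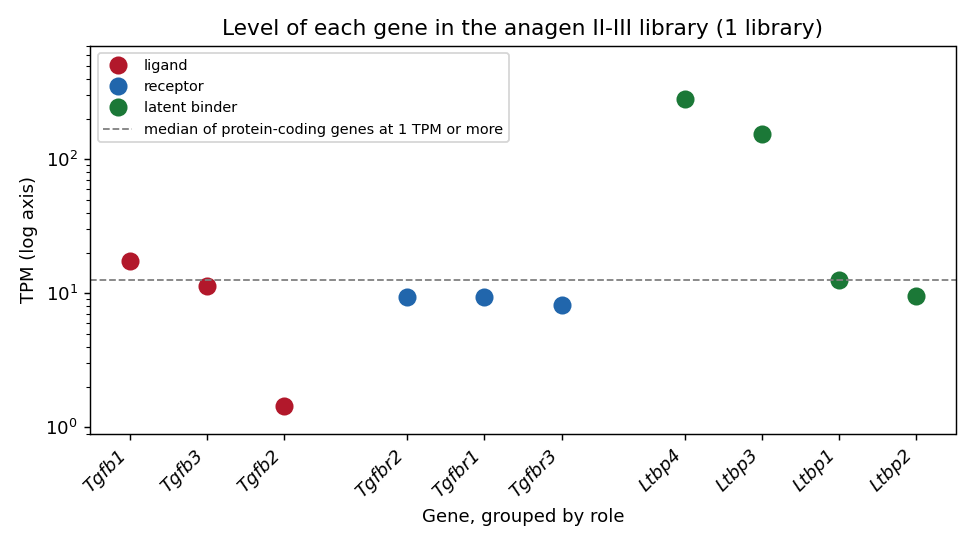
Level in TPM (log axis) of each of the 10 genes in the anagen II-III library, coloured by role and ordered from high to low within a role, 1 point per gene and no replicate. Ltbp4 and Ltbp3 stand at 279.8 and 155 TPM, the receptors within 8.22 to 9.41 TPM, and Tgfb2 lowest at 1.46 TPM; the dashed line is the 12.5 TPM median of protein-coding genes at 1 TPM or more.

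Tgfb1 and Tgfb3 RNA made up nearly all of the ligand transcripts, and Tgfb2 RNA was scarce. Tgfb1 (ENSMUSG00000002603), the most widely expressed isoform in the body, stood at 17.6 TPM, higher than 77.7% of nuclear protein-coding genes, 60.3% of those at 1 TPM or more and 47.7% of those at 5 TPM or more. Its gene spans chr7:25687002-25705077 in GRCm38 and is transcribed from the strand given above. Tgfb3 (ENSMUSG00000021253, chr12:86056743-86079041), an isoform known for its need in palate fusion, stood at 11.3 TPM. Tgfb2 (ENSMUSG00000039239, chr1:186622787-186709697), whose TATA-containing stretch before an internal start is printed above, stood at 1.46 TPM. The level of Tgfb1 was 1.56-fold that of Tgfb3 and 12.1-fold that of Tgfb2, and Tgfb3 was 7.74-fold above Tgfb2. With 1 TPM added to each value, the ratios to Tgfb2 were 7.56 for Tgfb1 and 4.996 for Tgfb3. Of the summed ligand level of 30.3 TPM, Tgfb1 held 58.0% and Tgfb2 held 4.81%. Tgfb2 alone of the 10 genes lay below 5 TPM. It exceeded 46.4% of all nuclear protein-coding genes and 4.41% of those at 1 TPM or more.

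The receptor genes had nearly equal levels. Tgfbr2 (ENSMUSG00000032440, chr9:116087695-116175363), the type II receptor that binds ligand first, stood at 9.41 TPM. Tgfbr1 (ENSMUSG00000007613, chr4:47353222-47414926), the type I receptor ALK5 whose kinase phosphorylates SMAD2 and SMAD3, stood at 9.35 TPM. The level of Tgfbr2 was 1.01-fold that of Tgfbr1. Tgfbr3 (ENSMUSG00000029287, chr5:107106567-107289629), the co-receptor betaglycan that presents Tgfb2 protein to the type II receptor, stood at 8.22 TPM, with Tgfbr2 1.15-fold and Tgfbr1 1.14-fold above it. These values ranked from 6838 to 7352 among nuclear protein-coding genes, where 1 is the highest. The summed level of the ligands, 30.3 TPM, was 1.12-fold that of the receptors, 27.0 TPM.

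The latent binders split into a high and a moderate pair. Ltbp4 (ENSMUSG00000040488, chr7:27305140-27339720), which binds latent complexes weakly and also guides elastic fibre assembly, stood at 279.8 TPM and ranked 235 among nuclear protein-coding genes. Ltbp3 (ENSMUSG00000024940, chr19:5740900-5758536), a binder of latent complexes needed for normal bone and teeth, stood at 155 TPM and ranked 425. Both exceeded more than 95% of protein-coding genes in each of the 3 backgrounds tried. Ltbp1 (ENSMUSG00000001870, chr17:75005480-75392512), the founding member of the family, stood at 12.5 TPM. Ltbp2 (ENSMUSG00000002020, chr12:84783212-84876558), a matrix protein of the family that does not bind latent TGF-beta, stood at 9.58 TPM. Ltbp4 was 1.80-fold above Ltbp3, 22.3-fold above Ltbp1 and 29.2-fold above Ltbp2, while Ltbp1 was 1.31-fold above Ltbp2. Ltbp4 and Ltbp3 together held 95.2% of the summed level of the latent binders. That sum, 457 TPM, was 15.1-fold the sum of the ligands and 17.0-fold that of the receptors, and it made up 88.9% of the 515 TPM of all 10 genes. RefSeq lists 6 transcript models for Ltbp4, 11 for Ltbp3, 14 for Ltbp1 and 4 for Ltbp2, which the single value per gene does not separate.

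**Figure D2:**
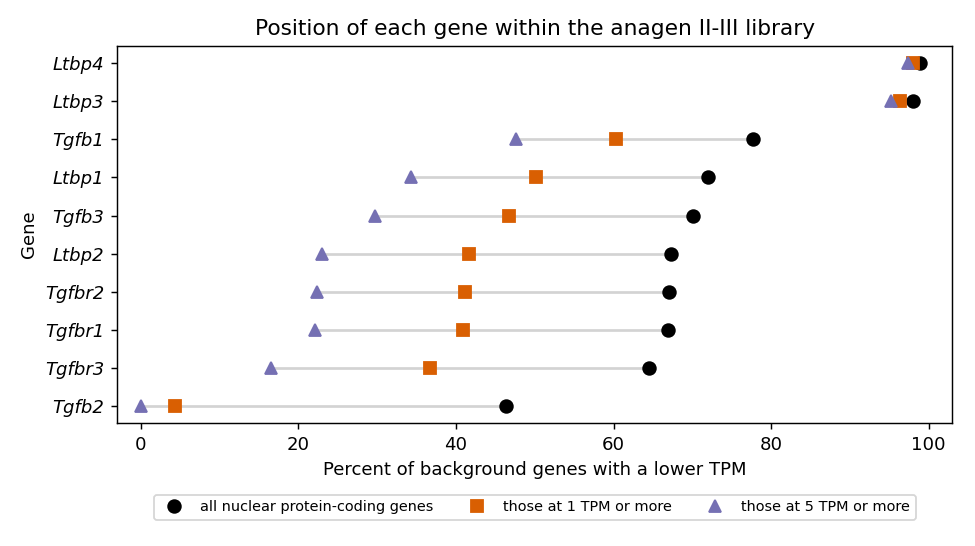
Percent of background genes with a lower TPM than each of the 10 genes (x axis), for all nuclear protein-coding genes and for those at 1 or 5 TPM or more. Ltbp4 and Ltbp3 stay above 95% in each background, whereas Tgfb2 drops from 46.4% to 4.41% and 0% when low genes are left out.

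Genes that act with the ligands, receptors and binders were expressed to different extents. The counts for their lists, here and below, stand beside the 56.1% of nuclear protein-coding genes that reached 1 TPM. All 8 SMAD genes were at 1 TPM or more, and their median was 15.8 TPM. Smad2, which carries the TGF-beta signal, stood at 21.3 TPM and its partner Smad3 at 2.51 TPM, an 8.47-fold difference, and the shared partner Smad4 stood at 44.4 TPM. The inhibitory Smad7 and Smad6 stood at 10.2 and 7.58 TPM. Smad5 and Smad1, which carry BMP signals, were at 23.2 and 21.7 TPM, and the third of that kind, Smad9, was at 1.07 TPM. All 8 genes that restrain the pathway were expressed, at a median of 13.9 TPM. Pmepa1, a membrane protein that sequesters SMADs, led them at 79.6 TPM, followed by the corepressor genes Tgif1 at 53.6 TPM and Ski at 40.4 TPM, while the decoy receptor gene Bambi was lowest at 3.42 TPM.

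Among 12 genes that process or activate latent TGF-beta, 10 were at 1 TPM or more, and the median of all 12 was 28.4 TPM. Mmp14, a membrane-bound protease, stood at 79.1 TPM, Thbs1, a matrix activator of latent TGF-beta, at 78.7 TPM, Furin, which cleaves the propeptide, at 53.9 TPM, and Itgb5 at 48.9 TPM. Lrrc32, which anchors latent TGF-beta on regulatory T cells and platelets, was at 0.671 TPM, and the protease gene Mmp9 at 0.0445 TPM. Subunits of the main activating integrins, named after their values were seen, were Itgav at 36.6 TPM, Itgb6 at 20.1 TPM and Itgb8 at 7.52 TPM.

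Among 8 matrix partners of the latent complexes, 6 were expressed. The median of all 8 was 3.14 TPM, near the 2.45 TPM of all nuclear protein-coding genes. Fn1, encoding fibronectin, led at 62.2 TPM, followed by the cross-linking enzyme gene Tgm2 at 16.9 TPM and the elastin gene Eln at 6.32 TPM. The microfibril genes Fbn1 and Fbn2, whose products share their domain structure with the latent binders and hold them in the matrix, stood at 3.37 and 0.627 TPM. Ltbp4 was 83.2-fold and Ltbp3 46.2-fold above Fbn1, against 3.72-fold for Ltbp1 and 2.85-fold for Ltbp2. All 6 secreted binders of TGF-beta or activin were expressed, at a median of 26.8 TPM. Among them the proteoglycan gene Bgn was at 465 TPM, 1.66-fold above Ltbp4, Dcn, encoding decorin, at 63.9 TPM and the activin antagonist gene Fst at 34.7 TPM.

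Among 10 other receptors of the superfamily, 8 were expressed and the median of all 10 was 9.84 TPM. The BMP type I receptor gene Bmpr1a stood at 37.0 TPM and the activin type I receptor gene Acvr1b at 36.3 TPM, so that Acvr1b was 3.88-fold above Tgfbr1. The type II receptor genes Acvr2a and Bmpr2 stood at 13.4 and 11.8 TPM, and Bmpr1b and Acvr1c were lowest at 0.0958 and 0.00806 TPM. Of 6 activin and related ligand genes, 2 reached 1 TPM, namely Inhbb at 52.9 TPM and Inha at 10.3 TPM, while Nodal was listed at 0. The level of Tgfb1 was 0.332 times that of Inhbb. All 9 response genes of TGF-beta were expressed, at a median of 31.9 TPM. Tnc, Tgfbi, Pmepa1 and Ccn2 led them at 99.3, 91.0, 79.6 and 70.9 TPM, and Tmeff1 and the cell cycle inhibitor gene Cdkn2b were lowest at 6.50 and 2.07 TPM. Other signals also act on these response genes, so their levels in 1 library do not measure TGF-beta activity.

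**Figure D3:**
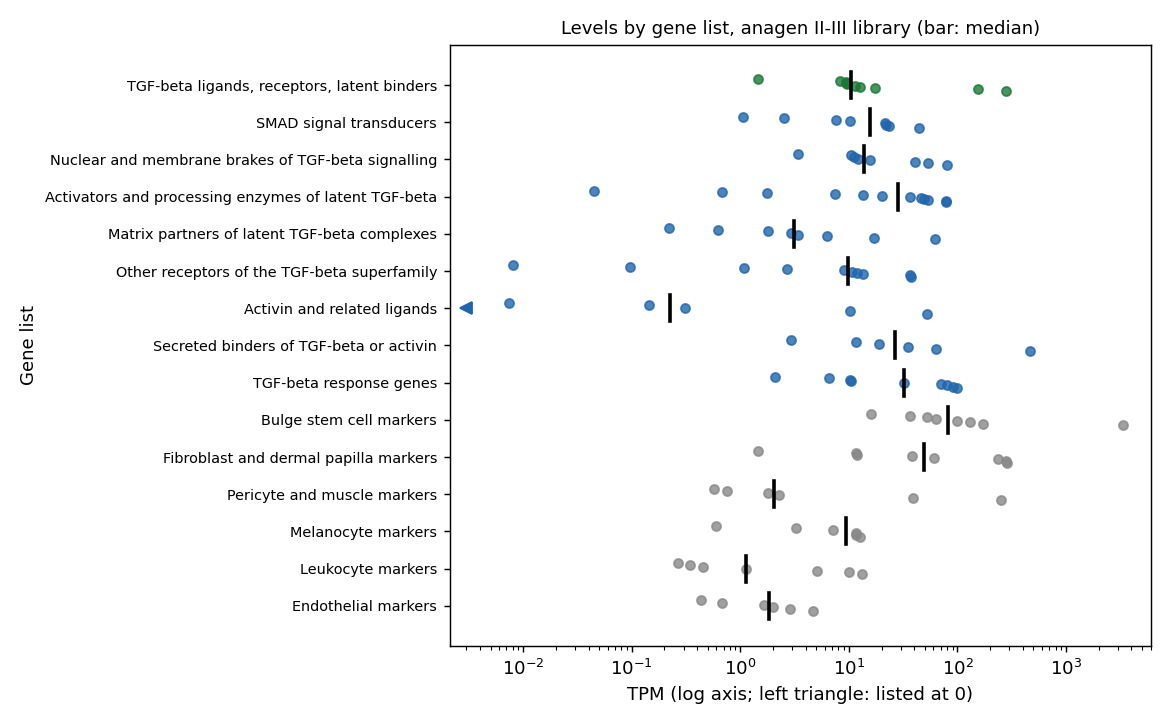
TPM (log axis) of every gene in the 10-gene set and in the other lists, 1 point per gene, a black bar at each median and a left triangle for Nodal, listed at 0. The 10 genes have a median of 10.4 TPM, against 3.14 TPM for matrix partners, 28.4 TPM for activators, 81.7 TPM for bulge markers and 49.5 TPM for fibroblast and dermal papilla markers.

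The sorted population was checked against marker genes. All 8 bulge markers were expressed, with a median of 81.7 TPM. Krt15 was 12.0-fold above Ltbp4, while the others all lay below Ltbp4, from 171 TPM for Lhx2 to 16.1 TPM for Nfatc1. Cd34 and Itga6, at 132 and 99.4 TPM, encode proteins on which the cells were sorted, so these genes are no separate check. Of 33 genes that mark other skin cells, none was listed at 0. Values above 0 are common, since genes at 0 share rank 16549 among the 20723 nuclear protein-coding genes. Of all 42392 gene IDs, 24251 were above 0. For fibroblasts and the dermal papilla, 8 of 8 markers reached 1 TPM, with a summed level of 926 TPM. The collagen genes Col3a1, Col1a1 and Col1a2 gave 802 TPM of that sum. Vim and Pdpn stood at 60.5 and 38.4 TPM, and Lum and Dpt at 11.8 and 11.5 TPM. Col1a1, a fibrillar collagen of fibroblasts, stood at 278 TPM, and Ltbp4 was 1.01-fold above it, while Pdgfra, whose protein CD140a was used to exclude cells, stood at 1.44 TPM, next to the 1.46 TPM of Tgfb2. For pericytes and muscle the count was 4 of 6 with a sum of 298 TPM, of which Acta2 gave 254 and Cspg4 38.6 TPM. Rgs5 and Pdgfrb stood at 2.28 and 1.81 TPM, and Myh11 and Des at 0.755 and 0.576 TPM. The count and sum were 5 of 6 and 46.9 TPM for melanocytes and 4 of 7 and 30.5 TPM for leukocytes. For endothelium they were 4 of 6 and 12.3 TPM. Melanocyte markers ran from 12.6 TPM for Mlana to 0.602 TPM for Sox10. Leukocyte markers ran from 13.2 TPM for Cd74 to 0.264 TPM for Ptprc. The 3 receptor genes, at 8.22 to 9.41 TPM, lay within both ranges, and 23 of the 33 markers stood above Tgfb2. The shares for leukocytes, endothelium and pericytes and muscle are near the 56.1% of all nuclear protein-coding genes at this level. The latent binders, Bgn, Dcn and the ligands are also made by fibroblasts, and the part of such RNA in their levels was not tested. In a bulk library, fewer cells of a type and less RNA per cell cannot be told apart.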

How the data were processed

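RNA was sequenced from sorted hair follicle stem cells as paired ends after an Illumina mRNA library preparation, per the labels' protocols. The authors deposited TPM values, 1 per gene ID and library, per the file headers. Bowtie2 2.2.9, RSEM 1.2.30 and the mm10 build (another name of GRCm38) are listed in the submitters' processing notes, with neither annotation nor filters named there. TPM keeps no read depth, so the depth is unknown and no interval or detection limit was set. It is also relative: nuclear protein-coding genes held 47.8% of this library's TPM.

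The column whose name starts with 1 was taken as the anagen II-III sample, since only that sample has a title numbered 1. The other 11 columns of per-sample values were not used, because their names match no single sample here. Each gene ID was used once, since 160 IDs stand on more than 1 row, none of them among the 10 genes. Gene types and positions came from a RefSeq table of GRCm38.p6, matched by symbol. Where a symbol stood on several IDs, the highest value was taken.

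Computed values were counts at 1 TPM or more, medians, ratios of TPM and positions among protein-coding genes. The formula for positions was run on simulated levels without ties, which does not check the matching of genes. No test between groups was possible. Named genes were the 10, any gene of lists of at most 8 genes, and the 4 highest and the 2 lowest of longer lists, with Itgav, Itgb6 and Itgb8 added after their values were seen. One gene of the response list is not reported here. The genes and lists were chosen with earlier results of these data known. Calculations used Python 3.11.15, pandas 2.3.3 and numpy 2.4.6, and plots matplotlib 3.10.9.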

Additional observations from a re-analysis of the deposited data

How the results depend on the processing

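All 10 genes also reached 0.5 TPM, and all 10 reached 1 TPM after scaling to nuclear protein-coding genes, while 9 reached 5 TPM. Only the 5 TPM setting could lower the count, since 0.5 TPM is a lower bar and the scaling raises every value. The median of 10.4 TPM depended on the scale and the summary. It was 21.8 TPM when scaled to nuclear protein-coding genes, 18.7 TPM when scaled without mitochondrial genes and the 50 highest genes, and 16.2 TPM as a geometric mean of TPM + 0.1. Such scaling multiplies every value by 1 factor, 2.09 or 1.80, so ratios and ranks do not move. Ratios of TPM + 1 lowered Tgfb1 over Tgfb2 to 7.56-fold and Tgfb3 over Tgfb2 to 4.996-fold, and the other 10 ratios moved by less than 1.5-fold. Counts in all 8 pathway lists stayed within 1.5-fold after scaling to nuclear protein-coding genes, a setting under which no count could fall. Positions of 6 genes moved by over 1.5-fold against protein-coding genes at 1 TPM or more and those of 8 genes against those at 5 TPM or more, and those of Ltbp3 and Ltbp4 moved by less in both. No replicate could be left out, and unknown depth leaves the precision of low values such as that of Tgfb2 unstated. No paired analysis was possible because 1 library was analysed.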
